A study of Mus musculus with 10 samples.

Results

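The 10 genes described here, Lama2, Lama4, Lama5, Lamb1, Lamb2, Lamc1, Nid1, Nid2, Hspg2 and Agrn, code for laminin chains, nidogens and heparan sulfate proteoglycans of the basement membrane. They were taken by name, with earlier results of these data known, and are 10 of the 41249 genes in the count tables. All 10 had a mean above 1 CPM (the count normalized for library size) over the mice and so passed the filter on low counts, as did 13739 genes in all. Their RNA was measured by bulk RNA-seq of whole interscapular brown adipose tissue (iBAT) from male mice on high-fat diet (HFD), with 1 library per mouse. The 5 Axl KO mice carried a whole-body constitutive disruption of Axl, the gene of a receptor tyrosine kinase. Their allele, made in embryonic stem cell clones, holds a cassette with a splice acceptor and LacZ in an intron, so that it acts in every cell type and at all ages. The 5 wild-type (WT) mice came from the same heterozygous matings. Per the labels, both groups had free access to HFD for 24 weeks from an age of 6 to 8 weeks at standard room temperature; the study's text gives a somewhat longer diet that began at an older age. The comparison asks how the loss of Axl altered the iBAT transcriptome of HFD-fed mice.

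Basement membranes are thin sheets of extracellular matrix that surround adipocytes, muscle fibres, Schwann cells and capillaries. Laminins, cross-shaped trimers of an α, a β and a γ chain, assemble into a network at the cell surface, where integrins and dystroglycan bind them. Nidogens and the heparan sulfate proteoglycans perlecan (Hspg2) and agrin (Agrn) link this network to type IV collagen and retain growth factors. In adipose tissue every lipid-filled adipocyte has such a sheath, and the dense capillary bed of brown fat has its own.

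The counts of a mouse summed to between 5431014 and 9580215, and the coefficient of variation between mice of a genotype was 14.8% in the model across all genes. Axl, the disrupted gene, lay between 0.437 and 2.01 CPM in Axl KO mice and between 38.2 and 52.3 CPM in WT mice (log2 fold change −4.77, standard error 0.20, adjusted p = 1.1e-07, edgeR's quasi-likelihood test). It was the only gene with an adjusted p under 0.05 in this test, which is 0.00728% of those tested. Marker genes of brown adipocytes were abundant in every depot, with summed levels of 7120 to 12176 CPM. Axl KO replicates 1 and 2 held almost no RNA of skeletal muscle genes, and these markers are given below beside the basement membrane genes.

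The 10 genes lie on 8 chromosomes of GRCm38. Lama2 (ENSMUSG00000019899, chr10:26980036-27619758, reverse strand) and Lama4 (ENSMUSG00000019846, chr10:38965515-39110188, forward strand) share a chromosome, as do Hspg2 (ENSMUSG00000028763, chr4:137468769-137570630, forward) and Agrn (ENSMUSG00000041936, chr4:156165290-156197488, reverse). The others are Lama5 (ENSMUSG00000015647, chr2:180176373-180225859, reverse), Lamb1 (ENSMUSG00000002900, chr12:31265234-31329644, forward), Lamb2 (ENSMUSG00000052911, chr9:108479736-108490530, forward) and Lamc1 (ENSMUSG00000026478, chr1:153218922-153332786, reverse). Nid1 (ENSMUSG00000005397, chr13:13437551-13512269, forward) and Nid2 (ENSMUSG00000021806, chr14:19751265-19811787, forward) stand apart from each other as well. Their counts over the 10 mice ranged from 963 for Nid2 and 1775 for Lama5 to 18201 for Lama4.

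Each of the 10 genes had a lower mean in Axl KO than in WT mice, with Axl KO levels from 71.5% of WT for Nid2 to 96.9% for Lamb1, and no gene passed the test after adjustment. Their log2 fold changes had a median of −0.20, beside −0.00059 over all tested genes, of which 50.2% were lower in Axl KO mice. The lowest fold changes belonged to the nidogens Nid2 and Nid1, followed by Lama5, Hspg2 and Lamc1. These 5 had an unadjusted p under 0.05 in edgeR's test, where 3.86% of all tested genes had such a p and were lower in Axl KO mice. Their adjusted p was 0.571 for Lama5, Lamc1, Nid1 and Nid2 and 0.593 for Hspg2. None of the 10 genes had groups without overlap, as 0.619% of all tested genes did with Axl KO below WT. In RNA of a whole depot, fewer cells of a type and less RNA per cell cannot be told apart.

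**Figure D1:**
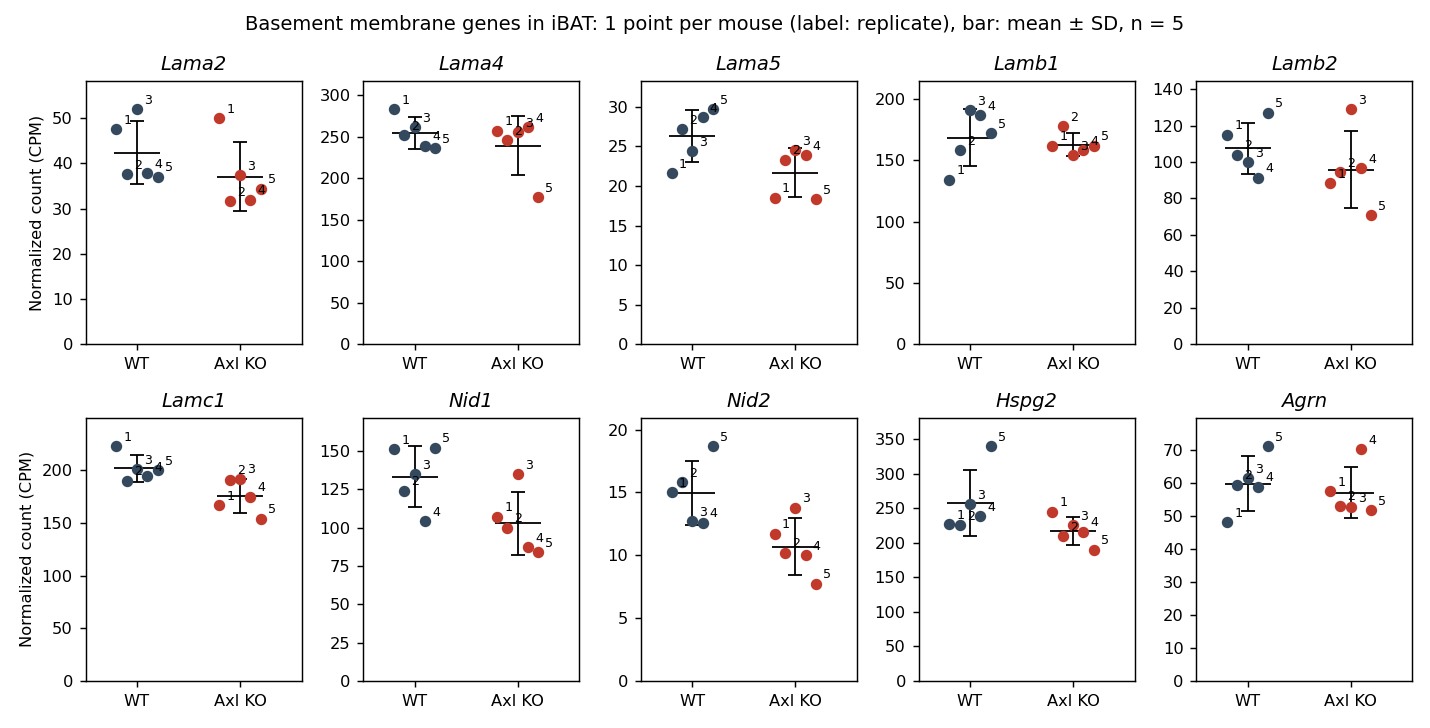
Normalized count (CPM, linear axis from 0) of each of the 10 genes in each mouse, with the replicate number beside the point and bars for mean ± SD of 5 mice. For Nid2, 4 of 5 Axl KO mice lay below every WT mouse, for Lamb1 the Axl KO points lie within the WT range, and the lowest Lama4 point is Axl KO replicate 5 at 177.5 CPM.

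Of the laminin α chains, Lama4 codes for α4, which is found in the walls of vessels and around adipocytes and muscle fibres. Lama4 lay at 256.6, 245.7, 254.7, 261.4 and 177.5 CPM in Axl KO replicates 1 to 5 and at 283.3, 251.7, 261.1, 239.2 and 236.1 CPM in WT replicates 1 to 5. Apart from Axl KO replicate 5, the lowest of the 10 mice, the groups covered the same range. The Axl KO and WT means were 239 ± 35 and 254 ± 19.1 CPM (SD, n = 5 each), with a log2 fold change of −0.088 (95% interval −0.30 to 0.13). Without Axl KO replicate 5 it was 0.000549, so that the direction rested on this mouse.

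Lama5 codes for α5, a chain of most adult endothelia and epithelia. It lay at 18.5, 23.3, 24.5, 23.9 and 18.3 CPM in Axl KO mice and at 21.6, 27.2, 24.4, 28.7 and 29.7 CPM in WT mice. Axl KO replicates 1 and 5 were below every WT mouse, and WT replicates 2, 4 and 5 were above every Axl KO mouse. The log2 fold change was −0.27 (standard error 0.11, 95% interval −0.51 to −0.029), with means of 21.7 ± 3.04 and 26.3 ± 3.32 CPM (SD, n = 5 each). A two-sided exact permutation test of the normalized counts gave p = 0.0635. Without Axl KO replicate 1 or 5, or WT replicate 2, 4 or 5, its unadjusted p was no longer under 0.05. Lama2, which codes for the α2 chain of muscle and peripheral nerve, lay at 50.0, 31.6, 37.4, 32.0 and 34.4 CPM in Axl KO mice and at 47.6, 37.6, 52.0, 37.8 and 37.1 CPM in WT mice. Axl KO replicate 1 stood with the WT mice of highest Lama2, while 3 of 5 Axl KO mice lay below every WT mouse. Its log2 fold change was −0.20 (95% interval −0.49 to 0.10), between 37.1 ± 7.58 and 42.4 ± 6.94 CPM (SD, n = 5 each). It was −0.325 without Axl KO replicate 1, where the unadjusted p was under 0.05, and −0.11 without WT replicate 3.

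The β chains Lamb1 and Lamb2 code for alternative partners in the trimer. β1 is the widespread form, and β2 is prominent at the neuromuscular junction, in kidney and in vessel walls. Lamb1 lay at 162, 178, 154, 158 and 162 CPM in Axl KO mice and at 134, 158, 191, 187 and 172 CPM in WT mice. The range of the Axl KO mice lay wholly within that of the WT mice. The log2 fold change of Lamb1 was −0.045 (95% interval −0.24 to 0.15), and without WT replicate 3 it was 0.00398. Lamb2 lay at 88.4, 94.4, 129, 96.5 and 70.9 CPM in Axl KO mice and at 115, 104, 100, 91.3 and 127 CPM in WT mice. Axl KO replicate 3 had the most and Axl KO replicate 5 the least Lamb2 of all 10 mice. Its log2 fold change was −0.16 (95% interval −0.46 to 0.13), with means of 95.8 ± 21 and 107 ± 13.9 CPM (SD, n = 5 each). It was −0.294 without Axl KO replicate 3, where the unadjusted p was under 0.05, and −0.0741 without Axl KO replicate 5.

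Lamc1 codes for γ1, the γ chain of nearly all laminin trimers outside epithelia and the chain to which nidogen binds. It lay at 167, 191, 192, 175 and 154 CPM in Axl KO mice and at 223, 190, 201, 194 and 200 CPM in WT mice. WT replicates 1, 3, 4 and 5 were above every Axl KO mouse, and Axl KO replicates 1, 4 and 5 were below every WT mouse. The Axl KO and WT means were 176 ± 16.4 and 202 ± 12.9 CPM (SD, n = 5 each). The log2 fold change was −0.20 with a standard error of 0.073, the smallest error among the 10 genes, and a 95% interval of −0.36 to −0.039. The exact permutation test gave p = 0.0238, where the smallest p that 5 mice against 5 allow is 0.00794. The unadjusted p of Lamc1 was no longer under 0.05 without WT replicate 1, the mouse with the most Lamc1.

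The stretch of Lamc1 that couples γ1 to the nidogens is shown because the nidogens had the lowest fold changes of the 10 genes. The printed bases are the sense strand of exon 14 of 28 of transcript Lamc1-201, at chr1:153243346-153243396 on the reverse strand of GRCm38, and lie within the coding region. Capitals mark the codons of the short peptide of γ1 that nidogen recognizes, bases 2738 to 2758 of the 7622 of the transcript.
Lamc1 nidogen site: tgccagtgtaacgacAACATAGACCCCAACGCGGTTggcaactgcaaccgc

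The nidogens, rod-shaped glycoproteins that bridge laminin and type IV collagen, had the largest differences. Nid1 lay at 107, 100, 135, 87.3 and 84.1 CPM in Axl KO mice and at 151, 124, 135, 104 and 152 CPM in WT mice. Axl KO replicates 2, 4 and 5 were below every WT mouse, whereas Axl KO replicate 3 lay at the level of WT replicate 3. The Axl KO and WT means were 103 ± 20.5 and 133 ± 20 CPM (SD, n = 5 each). The log2 fold change was −0.37 (standard error 0.13, 95% interval −0.66 to −0.08). The exact permutation test gave p = 0.0635. Nid2, the scarcer of the pair, lay at 11.7, 10.2, 13.8, 10 and 7.72 CPM in Axl KO mice and at 15, 15.8, 12.7, 12.6 and 18.7 CPM in WT mice. Axl KO replicate 3 was again the exception, and the other 4 Axl KO mice were below every WT mouse. Nid2 averaged 10.7 ± 2.23 and 15 ± 2.54 CPM (SD, n = 5 each), a log2 fold change of −0.47 (standard error 0.15, 95% interval −0.81 to −0.14; exact permutation p = 0.0317). Among all tested genes this fold change stood at percentile 3.81 from the lowest, and that of Nid1 at percentile 5.92. Both kept an unadjusted p under 0.05 with any mouse left out, and without Axl KO replicate 3 their log2 fold changes were the lowest, −0.491 for Nid1 and −0.588 for Nid2. In DESeq2, run as an alternative, Nid1 had an adjusted p under 0.05 without Axl KO replicate 3, among 234 genes, and in none of the other fits. Exons of Nid2 share 437 bases with Rtraf on the opposite strand; the counting strand is not given in the sources used here, and Rtraf was higher in Axl KO mice (51.0 ± 2.37 against 46.5 ± 1.34 CPM, SD, n = 5 each; log2 fold change 0.13).

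The proteoglycans differed from each other. Hspg2, which codes for perlecan, lay at 245, 209, 225, 216 and 190 CPM in Axl KO mice and at 227, 225, 256, 238 and 340 CPM in WT mice. WT replicate 5 stood far above the other 9 mice, and Axl KO replicate 5 was the lowest. The Axl KO and WT means were 217 ± 20.2 and 257 ± 47.7 CPM (SD, n = 5 each). The log2 fold change was −0.24 (standard error 0.11, 95% interval −0.49 to −0.00096). An exact permutation test of Hspg2 gave p = 0.0794. Without WT replicate 5 the log2 fold change of Hspg2 was −0.123, and the unadjusted p was no longer under 0.05. With 1 mouse left out, this p was under 0.05 in only 4 of the 10 fits. Agrn, which codes for agrin, lay at 57.4, 53.1, 52.7, 70.2 and 51.8 CPM in Axl KO mice and at 48.1, 59.4, 61.4, 58.8 and 71.2 CPM in WT mice. The groups overlapped over most of their range, with means of 57.0 ± 7.66 and 59.8 ± 8.25 CPM (SD, n = 5 each). Its log2 fold change was −0.068 (95% interval −0.30 to 0.16), and without WT replicate 5 it was 0.00257.

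**Figure D2:**
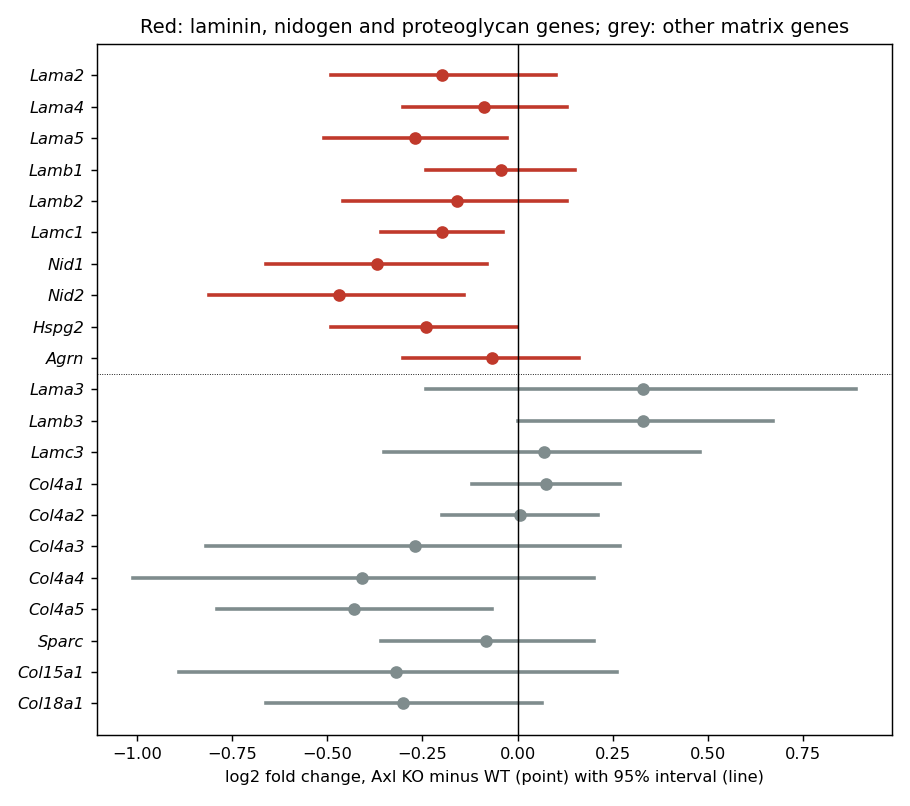
Log2 fold change, Axl KO minus WT, from edgeR (points) with its 95% interval (lines) for the 10 genes in red and for other laminin chains, type IV collagens and matrix genes in grey. The 10 red points lie below 0, from −0.47 for Nid2 to −0.045 for Lamb1, and the intervals of 5 exclude 0, while Col4a1 and Col4a2 lie at 0.074 and 0.0063.

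Levels of different genes were compared per kilobase of exon, as CPM per kb over the union of annotated exons. Averaged over the 10 mice, Lamc1 had 22.8 ± 2.35 (SD), Lama4 20.4 ± 2.3, Nid1 17.0 ± 3.58, Lamb1 16.7 ± 1.69, Lamb2 16.7 ± 2.94 and Hspg2 16.6 ± 2.83 CPM per kb. Agrn followed at 6.29 ± 0.823 CPM per kb, and Nid2, Lama2 and Lama5 lay at 2.48 ± 0.616, 2.43 ± 0.453 and 2.11 ± 0.34 CPM per kb (SD). Lamc1 was above Lama4 in 8 mice and Lama4 above Nid1 in 9, whereas Nid1, Lamb1, Lamb2 and Hspg2 stood in a different order from mouse to mouse. Hspg2 was above Agrn, and Agrn above Nid2, in all 10 mice, and Nid2, Lama2 and Lama5 likewise had no fixed order. Per kb, Lamc1 stood at percentile 87.5 of all tested genes and Lama5 at percentile 32.3. With the length of the longest transcript in place of the exon union, Lama4 (40.8 CPM per kb) and Lamb1 (28.6) came before Lamc1 (24.8). Lama2 (4.14) then came before Nid2 (2.63) and Lama5 (2.11) in the mean. The order at the top and that of the scarce genes thus depend on the gene models.

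**Figure D3:**
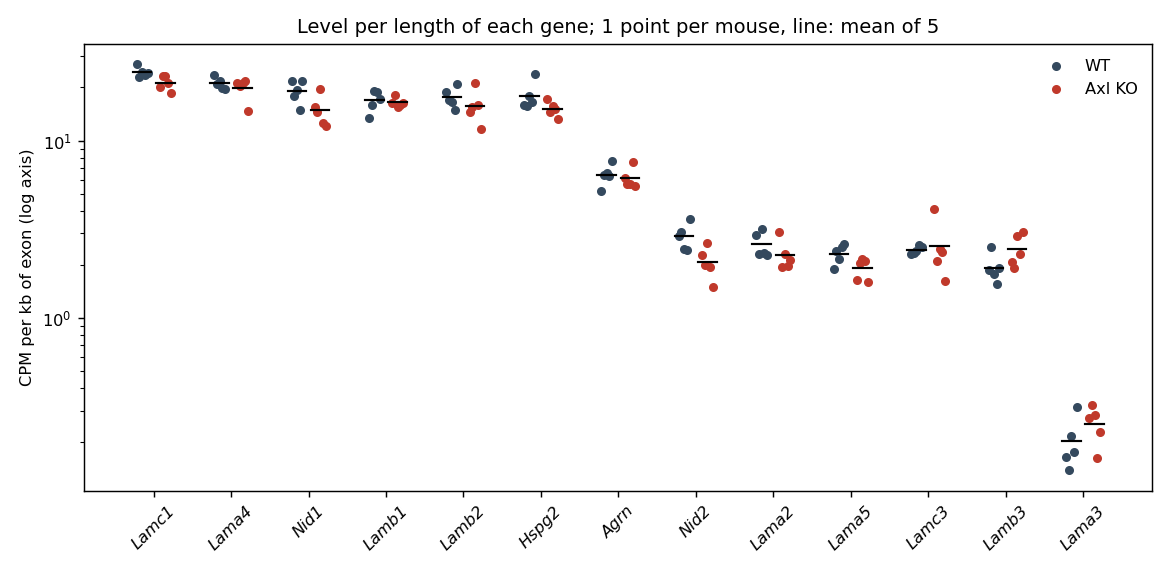
Level of each gene in CPM per kb of exon (log axis), 1 point per mouse, with a line at the mean of 5 mice. The genes fall into a high group from Lamc1 to Hspg2 at 16.6 to 22.8 CPM per kb, Agrn at 6.29, and a low group of Nid2, Lama2 and Lama5 beside Lamc3 and Lamb3, with Lama3 below all others.

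Within each chain class a single gene or a pair carried most of the RNA. Lama4 made up 78.9 to 83.7% of the summed α chain level per kb in Axl KO mice and 79.0 to 82.5% in WT mice. Lama2 made up 7.57 to 11.7% and 8.95 to 11.7%, and Lama5 6.2 to 8.6% and 6.66 to 10.5%. With the longest transcript, Lama4, Lama2 and Lama5 averaged 40.8, 4.14 and 2.11 CPM per kb over the 10 mice. The shares of the α chains therefore depend on the gene models. Per kb of the exon union, the β chains were close to evenly shared, with Lamb1 at 39.3 to 52.6% in Axl KO and 39.5 to 53.2% in WT mice. With the longest transcript, Lamb1 averaged 28.6 and Lamb2 18.1 CPM per kb over the 10 mice, so this balance depends on the gene models. Of the summed level of Lamc1 and Lamc3, Lamc1 made up 90.1 to 92.1% in WT mice and 90 to 92% in 4 Axl KO mice, and 83% in Axl KO replicate 1. In that mouse Lamc3, the γ3 chain, reached 17% of this sum, beside 7.89 to 10% in the other 9. Nid1 made up 86.6 to 89.0% of the nidogen level in Axl KO and 85.4 to 88.8% in WT mice. All of these ranges overlapped between genotypes. The nidogen level relative to that sum was 0.707 ± 0.0962 in Axl KO and 0.822 ± 0.101 in WT mice (SD, n = 5 each), and the ranges of 0.617 to 0.863 and 0.671 to 0.952 overlapped too.

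Of the laminin chains typical of epithelia or found in few tissues, Lamb3, Lama3 and Lamc3 had higher means in Axl KO mice. Lamb3 averaged 16.2 ± 3.32 CPM in Axl KO and 12.7 ± 2.31 CPM in WT mice (SD, n = 5 each), a log2 fold change of 0.33 (standard error 0.15, adjusted p = 0.593). Lama3 lay at 2.72 ± 0.653 and 2.17 ± 0.748 CPM, a log2 fold change of 0.33 (95% interval −0.24 to 0.89), and Lamc3 at 15.4 ± 5.80 and 14.8 ± 0.687 CPM (SD, n = 5 each), a log2 fold change of 0.068. The direction of Lamc3 rested on Axl KO replicate 1, at 25.2 CPM, beside 9.79 to 14.9 CPM in the other 4 Axl KO mice and 14.1 to 15.6 CPM in WT mice, and its log2 fold change was −0.173 without that mouse. Lama1, with 2 counts over the 10 mice, was below the filter. Of 6 epithelial markers, Epcam, Krt8, Krt5 and Krt14 had 0 counts in every mouse, and the summed level of all 6 was at most 0.301 CPM.

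The values of the 10 genes varied together to different degrees over the 10 mice. For 15 pairs of chains that meet in a complex or stand in for each other, correlations of log2 CPM were computed, with permutation p-values adjusted over the 15 pairs. Nid1 and Nid2 followed each other most closely, with Pearson's r = 0.89 (permutation p = 0.00041, adjusted 0.00615) and Spearman's rho = 0.92 (permutation p = 0.00058, adjusted 0.0087). Their r was 0.80 without the 2 mice with the most extreme Nid1 and 0.81 after the genotype means were removed. Nid1 and Lamc1 had r = 0.81 (permutation p = 0.00322, adjusted 0.0241) and rho = 0.76 (permutation p = 0.0154, adjusted 0.116), with r = 0.66 both without the 2 extreme mice and after centring on the genotypes. No other pair had an adjusted p under 0.05.

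Lamc1 had r = 0.75 with Lamb2 (rho = 0.64) and r = 0.74 with Nid2 (rho = 0.66), both with an adjusted permutation p of 0.0525 for r and 0.201 for rho. Lama4 and Lamc1 had r = 0.70 (rho = 0.30, adjusted permutation p = 0.1 and 0.47), and r = −0.47 without Axl KO replicate 5 and WT replicate 1, so the relation rested on these mice. Lamb1 had r = −0.11 with Lamc1 (rho = 0.12, adjusted permutation p = 0.759 for each), and r = 0.50 without WT replicate 1, so the sign rested on this mouse. With Lamb2, the alternative β chain, Lamb1 had r = −0.26 (rho = −0.42, adjusted permutation p = 0.511 and 0.293). Hspg2 and Agrn had r = 0.61 (rho = 0.45, adjusted permutation p = 0.145 and 0.293), and r = 0.12 without WT replicate 5 and Axl KO replicate 5. The p-values treat the 10 mice as a single set, although the genotypes differ in their means.

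**Figure D4:**
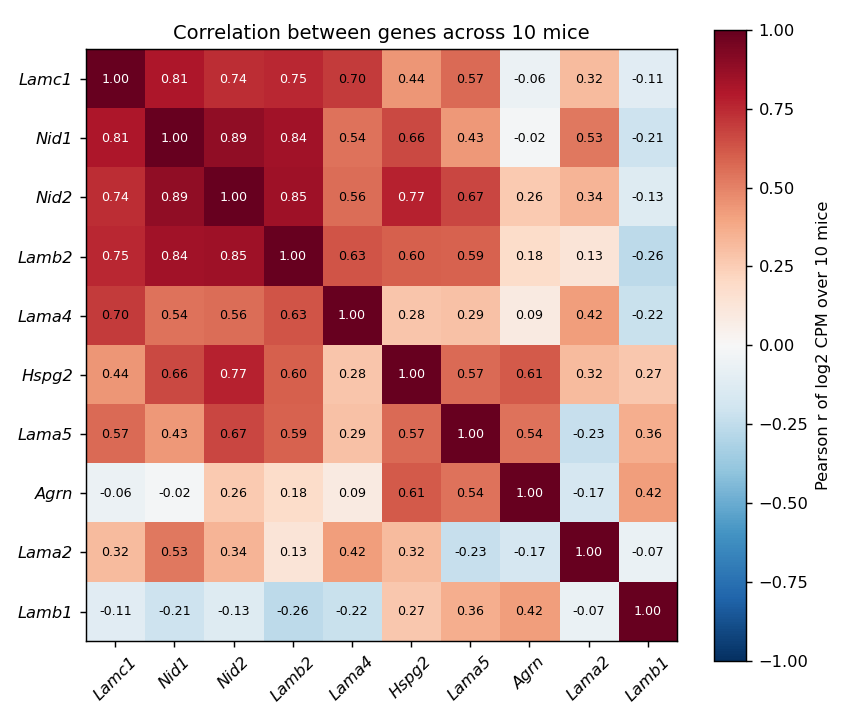
Pearson's r of log2 CPM over the 10 mice for every pair of the 10 genes, on a colour scale from −1 (blue) to 1 (red). Lamc1, Nid1, Nid2 and Lamb2 form a block of r between 0.74 and 0.89, while Lamb1 has r of −0.26 to 0.42 with the other genes.

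Among 10374 genes with a mean of at least 5 CPM, those with the highest r to each of the 10 genes over the 10 mice differed from gene to gene. For Nid1 they were Thbs2 (r = 0.98), which codes for the matrix protein thrombospondin-2, Cavin3 (0.96) and the collagen gene Col1a1 (0.94). For Nid2 they were Lime1 (0.96), Cyb561d1 (0.95) and Cdc42ep1 (0.94), and for Lamc1 Clint1 (0.97), Cdsn (0.96) and Adam22 (0.96). Lamb2 was closest to Cdkn1b, Meox2 and Aplnr (each 0.96), the last being the endothelial receptor of apelin, and Lamb1 to Wdr60 (0.96), Scaf4 (0.91) and Zfp592 (0.90). Lama4 was closest to Arntl2 (0.93), Smim15 and Cnep1r1 (each 0.92), Lama5 to Phyh (0.96), Dync1h1 (0.94) and Zfp174 (0.93), and Lama2 to Serpine2 (0.85), Dnmt3a (0.84) and Yju2 (0.83). Hspg2 was closest to Vps26b and Igf1r (each 0.90) and Bmpr2 (0.89), and Agrn to Gm17251 (0.92), Nfs1 (0.91) and Cabin1 (0.89). These are the highest of 10374 values over 10 points that share libraries and genotypes, and are given without a test.

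The sequence before the transcription start was available for 7 of the 10 genes in RefSeq (GRCm38.p6), and Lama4, Lamc1 and Nid2 had no entry. The promoters of Nid1, Lama5 and Hspg2 are shown because these are the genes with an entry and an unadjusted p under 0.05. Each runs 5′ to 3′ on the strand of its gene, up to 250 bases before the RefSeq start and ending before the first annotated base of the gene. They lie at chr13:13437352-13437550 (forward strand), chr2:180225860-180226109 (reverse strand) and chr4:137468553-137468768 (forward strand). Capitals mark the GC box GGGCGG on either strand.
Nid1 promoter: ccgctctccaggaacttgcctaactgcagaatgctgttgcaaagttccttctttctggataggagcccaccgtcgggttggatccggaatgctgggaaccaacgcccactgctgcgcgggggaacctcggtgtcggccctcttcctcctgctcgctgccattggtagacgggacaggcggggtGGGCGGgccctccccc
Lama5 promoter: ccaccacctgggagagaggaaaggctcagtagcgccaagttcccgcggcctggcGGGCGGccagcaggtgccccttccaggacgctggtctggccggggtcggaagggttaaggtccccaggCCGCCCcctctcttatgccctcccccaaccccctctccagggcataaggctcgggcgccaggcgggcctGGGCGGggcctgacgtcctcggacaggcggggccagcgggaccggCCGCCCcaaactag
Hspg2 promoter: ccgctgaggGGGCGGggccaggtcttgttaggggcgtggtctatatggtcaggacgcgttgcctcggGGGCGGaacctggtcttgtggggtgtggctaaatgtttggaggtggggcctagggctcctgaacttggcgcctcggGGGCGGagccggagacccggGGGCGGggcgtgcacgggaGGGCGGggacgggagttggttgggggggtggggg

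The GC box was found 1 time before Nid1, 4 times before Lama5 and 5 times before Hspg2. GC content was 63.8, 72.4 and 70.8%, beside a median of 52.4% over all promoters. In the full windows of 250 bases the GC box was also found before Lamb1 (2 times) and before the upstream and downstream starts of Agrn (12 and 2 times). It was found in neither Lamb2 nor Lama2. Of all 32851 promoters of this length in the table, 32.7% hold it. The CCAAT box (CCAAT on either strand) was found 1 time each before Nid1 and Lamb1, beside 33.8% of all promoters. The TATA box TATAAA was found in no window of the 7 genes, beside 12.4% of all promoters. The E-box CANNTG was found before Lama5, Lamb1, Lamb2 and Lama2 and at the downstream start of Agrn, beside 66.2%. Adjacent GC boxes can share bases and were then counted separately, and a match is a description of the letters only.

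The network of type IV collagen, which the nidogens tie to laminin, had other values. Of 12 genes for collagen IV chains and their crosslinking, 11 were tested, 4 were higher and 7 lower in Axl KO mice, and their median log2 fold change was −0.11. The main chains Col4a1 (432 ± 53.8 against 410 ± 39.2 CPM) and Col4a2 (247 ± 26.7 against 246 ± 30.7 CPM, SD, n = 5 each) had log2 fold changes of 0.074 (95% interval −0.12 to 0.27) and 0.0063 (−0.20 to 0.21); that of Col4a2 was −0.0404 without Axl KO replicate 1. Serpinh1, the collagen chaperone with the highest level per length in the list, was at −0.11. Col4a5, a scarce chain, was the only gene of the list with an unadjusted p under 0.05, at 8.48 ± 1.46 and 11.5 ± 2.52 CPM (SD, n = 5 each; log2 fold change −0.43, adjusted p = 0.571).

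Of 24 other basement membrane and associated proteins, 22 were tested, and 18 were lower and 4 higher in Axl KO mice (median log2 fold change −0.29). An unadjusted p under 0.05 was found for 6 lower genes and 1 higher gene, and no adjusted p was below 0.571. Of all tested genes, 3.86% had such a p and were lower, and 4.54% had such a p and were higher. Smoc2, a matricellular protein related to SPARC, lay at 27.6, 38.5, 37.5, 29.8 and 30.5 CPM in Axl KO mice and at 42.5, 45, 51.5, 45.7 and 42.9 CPM in WT mice. Its groups did not overlap (log2 fold change −0.47, standard error 0.097; exact permutation p = 0.00794). Efemp1, which codes for fibulin-3, lay at 16.2 to 21 CPM in Axl KO and 21.8 to 28.8 CPM in WT mice, likewise without overlap (log2 fold change −0.37). Among all tested genes, 0.619% had groups without overlap and Axl KO below WT. Npnt, which codes for the integrin ligand nephronectin, had the opposite direction (log2 fold change 1.87, standard error 0.53). It lay at 0.699 to 4.52 CPM in Axl KO and 0.273 to 0.578 CPM in WT mice. The means were 1.92 ± 1.56 and 0.48 ± 0.119 CPM (SD, n = 5 each). The filter on low counts asked for a mean above 1 CPM over all mice, so Npnt was tested only because of its Axl KO level. With 1 mouse left out it passed this filter in 9 fits, but not in every one. Fbln2 (fibulin-2) and Hmcn2 (hemicentin-2) had log2 fold changes of −0.32 and −0.54. Each had an unadjusted p under 0.05 in 5 of the 10 fits with 1 mouse left out. Sparc, Smoc1 and Tinagl1, the genes of the list with the highest level per length, lay at −0.082, 0.23 and −0.0031; Sparc was at 0.00308 without WT replicate 5 and Tinagl1 at 0.0783 without WT replicate 3.

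The receptors of laminin and the basement membrane had values near those of all genes. Of 18 receptor genes, 16 were tested, with 6 higher and 10 lower and a median log2 fold change of −0.042. Cd151, Itgb1 (integrin β1) and Dag1 (dystroglycan), the receptor genes with the highest level per length, lay at −0.033, −0.059 and 0.049. Sdc4, the heparan sulfate proteoglycan syndecan-4, was at 81.1 ± 31.3 and 53.5 ± 14.7 CPM (SD, n = 5 each, log2 fold change 0.59, adjusted p = 0.571). Axl KO replicate 5 had 136 CPM of Sdc4, and without this mouse the log2 fold change was 0.331. Lrp4, the receptor of agrin, was at 2.12 ± 0.515 and 3.27 ± 0.889 CPM (log2 fold change −0.59, adjusted p = 0.571). The 13 genes of the complex that couples dystroglycan to the cytoskeleton had 9 lower genes and a median of −0.12. The lowest p among them belonged to Sspn (sarcospan, log2 fold change −0.19, adjusted p = 0.581), while Utrn (utrophin) and Sntb1 (syntrophin β1) lay at −0.17 and −0.033, the latter at 0.0556 without WT replicate 1.

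The enzymes that modify these proteins and those that remove them were also compared. Of 16 tested genes for the sugar chain by which dystroglycan binds laminin, 11 were higher and 5 lower (median 0.037). Pomgnt1 and Dpm2 had an unadjusted p under 0.05, with log2 fold changes of 0.17 and 0.30. Such a p with a higher level in Axl KO mice was found for 4.54% of all tested genes. Dpm2, at 10.7 to 12.4 CPM in Axl KO and 7.93 to 10.3 CPM in WT mice, was scarce. Dolk and Dpm3 lay at 0.070 (−0.00443 without Axl KO replicate 2) and 0.13. Of 20 tested genes for heparan sulfate, the sugar chain of perlecan and agrin, 11 were higher and 9 lower (median 0.019), with Ext1 at 0.18 and Extl3, Sulf2 and Fam20b at −0.10, −0.16 and −0.06. Of 16 tested proteases and inhibitors of matrix turnover, 6 were higher and 10 lower (median −0.058). Timp3, a matrix-bound inhibitor of metalloproteases, lay at 226 ± 28.1 and 271 ± 18.2 CPM (SD, n = 5 each; log2 fold change −0.26, adjusted p = 0.571), Bmp1 and Plau at −0.32 and −0.42, and the lysosomal proteases Ctsb and Ctsl at 0.12 and 0.10. No gene of these lists had an adjusted p under 0.05.

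The cell types of iBAT were followed by lists of marker genes. All 10 fibroblast and progenitor markers were lower in Axl KO mice (median log2 fold change −0.24), with summed levels of 511 to 863 CPM in Axl KO and 734 to 976 CPM in WT mice. Of the 10, Col1a1 and Col1a2 had an unadjusted p under 0.05 (log2 fold changes −0.43 and −0.40). With 1 mouse left out, this p was under 0.05 in 4 of 10 fits for Col1a1 and 6 for Col1a2. Of 12 endothelial markers, 9 were lower (median −0.13), with sums of 682 to 839 and 694 to 991 CPM, and Cldn5, a tight junction gene, and Egfl7 lay at −0.73 and −0.31. Of 11 pericyte and smooth muscle markers, 9 were lower (median −0.12), with sums of 825 to 961 and 902 to 1021 CPM and Notch3 at −0.40. Of 10 Schwann cell markers, 7 were tested and 6 were lower (median −0.087), with sums of 324 to 425 and 332 to 440 CPM. Cdh19, at −0.28, had groups without overlap, as 0.619% of all tested genes did with Axl KO below WT. These medians had the sign of the median over the 10 basement membrane genes, and their part in the result was not tested.

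Brown adipocyte markers had the opposite sign, with 9 of 10 higher in Axl KO mice (median 0.22) and sums of 8844 to 12176 and 7120 to 9228 CPM. Dio2, Cox8b, Elovl3, Otop1, Ucp1 and Cox7a1 had an unadjusted p under 0.05. Of all tested genes, 4.54% had such a p and were higher in Axl KO mice. For Cox7a1 this p was under 0.05 in 3 of the 10 fits with 1 mouse left out. Ucp1, the uncoupling protein of brown fat, lay at 5561 ± 1197 and 4119 ± 863 CPM (SD, n = 5 each; log2 fold change 0.43, adjusted p = 0.571). General adipocyte markers summed to 12963 to 14866 and 12941 to 14274 CPM (median 0.057). Macrophage markers summed to 135 to 250 and 150 to 233 CPM (median −0.046), with 4 higher and 6 lower in Axl KO mice. Trem2, among the higher ones, had a log2 fold change of 1.05, and passed the filter on low counts in only 6 of the 10 fits with 1 mouse left out. Erythroid markers summed to 384 to 715 and 475 to 667 CPM (median 0.021). B and T cell markers summed to at most 2.46 CPM in any mouse. Skeletal muscle markers ranged from 6.16 to 3394 CPM in Axl KO and from 821 to 4052 CPM in WT mice, and all 10 were lower in Axl KO mice (median −1.10). With these markers as a covariate, chosen after the data were seen, the same 5 basement membrane genes had an unadjusted p under 0.05, and the median of the 10 was −0.217.

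**Figure D5:**
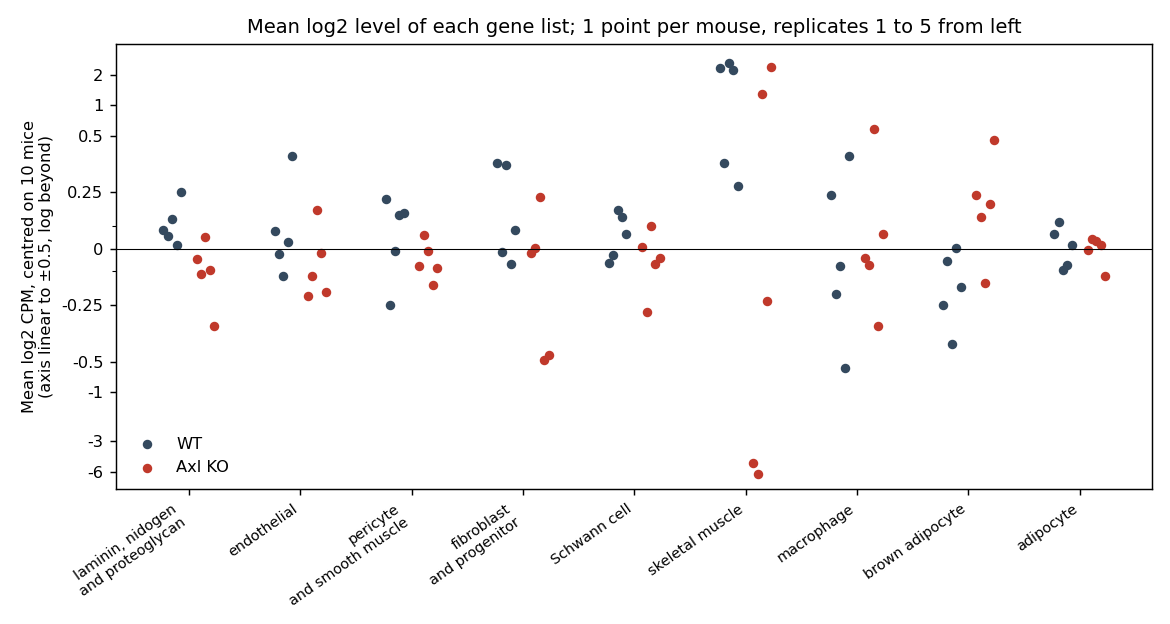
Mean log2 CPM of each gene list in each mouse, centred on the mean over the 10 mice, with replicates 1 to 5 from left to right and an axis that is linear to ±0.5 and logarithmic beyond. Axl KO replicate 5 is lowest for the basement membrane genes (−0.34) and next to lowest for the fibroblast list (−0.47), WT replicate 5 is highest for the basement membrane and endothelial lists (0.25 and 0.41), and Axl KO replicates 1 and 2 are lowest for skeletal muscle (−4.9 and −6.4).

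The mice did not take the same place in every gene. Averaged over the 10 genes on the log2 scale and centred on all mice, Axl KO replicates 1 to 5 lay at −0.046, −0.11, 0.051, −0.095 and −0.34, and WT replicates 1 to 5 at 0.084, 0.058, 0.13, 0.019 and 0.25. Axl KO replicate 3 therefore stood among the WT mice, and Axl KO replicate 5, the library with the fewest counts, stood below all others. Axl KO replicate 3 also had the highest fibroblast and endothelial averages of its genotype (0.23 and 0.17), and WT replicate 5 the highest endothelial average of all mice.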

How the data were processed

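RNA of 10 iBAT depots (5 Axl KO, 5 WT) was sequenced after TruSeq library preparation. The authors deposited 1 table per mouse with raw read counts for 41249 Ensembl genes, without normalization or pooling. The study's methods name Trim Galore and hisat2 on GRCm38, whereas the submitters' processing notes list bcl2fastq, Trimmomatic 0.36, STAR 2.6.1c, DESeq2 and GRCm38.p5; the labels name polyA RNA, the methods rRNA depletion. The counting tool and its strand setting are not given in the sources used here, so overlapping genes are uncertain.

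Groups came from the genotype label, and the tables of any pair of mice differed beyond sampling noise. Symbols and exon lengths came from GENCODE M21 (41163 identifiers matched, 86 not). Counts were compared in R 4.3.3 with edgeR 4.0.16 (TMM, quasi-likelihood test), for the 13739 genes with a mean above 1 CPM, and p-values were adjusted over all of them by Benjamini-Hochberg. The procedure was tested on simulated data. Single genes were also compared with two-sided exact permutation tests, and correlations with 100000 permutations of log2(CPM + 0.1). Alternatives were DESeq2 1.42.0, RLE size factors, filterByExpr, no filter, protein-coding genes alone, the replicate number as a block, each mouse left out (for genes outside the 10, added after the data were seen), transcript length and CPM without TMM. The basement membrane genes and all lists were chosen with earlier results of these data known. Named genes are the 10, Axl, other laminin chains, the 3 genes of highest level per length and up to 5 of lowest unadjusted p under 0.05 in each list, markers with such a p or at 0, and the 3 genes of highest r; Rtraf was named for its overlap with Nid2. Ndst4 had 0 counts, and withheld items are not reported here.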

Additional observations from a re-analysis of the deposited data

Results flagged for a closer look

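Of 34 groups of 5 mice examined for a value far from the others, 2 had one, where chance gives about 1.7. Lama4 in Axl KO replicate 5 lay at 177 CPM, with the nearest Axl KO mouse at 246 CPM, a gap of 0.813 of the range of the group. Hspg2 in WT replicate 5 lay at 340 CPM, with the nearest WT mouse at 256 CPM, a gap of 0.732 of the range. The critical gap for 5 samples is 0.71.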

How the results depend on the processing

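Every alternative of the edgeR test left 0 of the 10 genes with an adjusted p under 0.05, and RLE size factors, filterByExpr, no filter on low counts, protein-coding genes alone and DESeq2 left the same 5 with an unadjusted p under 0.05. With each mouse left out in turn, that number was 3 to 5 (3 without Axl KO replicate 5 or WT replicate 5, in each case Lamc1, Nid1 and Nid2), the median log2 fold change −0.245 to −0.155, and 1 gene in all had an adjusted p under 0.05. The range was −0.121 to 0.000549 for Lama4, −0.116 to 0.00398 for Lamb1 and −0.154 to 0.00257 for Agrn; their directions turned in 1 fit each, and those of the other 7 genes in none. DESeq2 gave 9 genes over all with an adjusted p under 0.05, in place of 1, and 0 of the 10. In fits added after the data were seen, DESeq2 without Axl KO replicate 3 gave 234 genes, with Nid1 the 1 of the 10 among them, and with any other mouse left out 1 to 8 genes and 0 of the 10; the cause was not tested. Correlations of same-numbered mice ran from −0.355 to 0.369. They were not set beside those of differently numbered mice, so a pairing by replicate number was neither shown nor excluded. With the number as a block, 1052 genes had an unadjusted p under 0.05 and 1 an adjusted one. Of the 10 genes, 0 were called and 5 had an unadjusted p under 0.05 (Lama2 in place of Hspg2), and the median of the 10 was −0.201. The correlation of Lamb1 and Lamc1 was 0.07 in CPM without TMM and ran from −0.27 to 0.50 with mice left out, and that of Lama4 and Lama5, 0.29 over all mice, from −0.64 to 0.42. Among genes outside the 10, the unadjusted p of Plau was under 0.05 in 3 of 10 fits with 1 mouse left out. That of Sspn was in 4 and that of Ext1 in 5. Depth limits Nid2 most, with 963 counts over the 10 mice, beside 18201 for Lama4.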
